A study of Homo sapiens with 14 samples.

Results

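Parental CHP-134 cells were profiled by RNA-seq in 8 of the 14 libraries of the study, and the 8 fall into replicates 1 and 2 (4 libraries) and replicates 3 and 4 (4 libraries). CHP-134, an established line from a human neuroblastoma, has amplified MYCN, the gene of the transcription factor N-MYC. The cells carried no tagged protein. They were treated for 18 h with 500 nM dTAG47, a compound that brings proteins with an FKBP12(F36V) tag to the cereblon ubiquitin ligase, or with DMSO, its solvent. Each treatment has 4 biological replicates of this 1 line, numbered 1 to 4. The other 6 libraries come from CHP-134 lines that carry a doxycycline-inducible EGFP or OmoMYC gene, with 3 libraries each after 3 days at 1 µg/ml doxycycline, and OmoMYC is a mutated MYC dimerization domain that blocks MYC proteins.

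The division into replicates 1 and 2 against 3 and 4 was chosen from distances between these same libraries, so the difference between the pairs is described here and not tested. The distance is a chi-square per degree of freedom over gene counts, which is 1 when a pair of libraries differs by read sampling alone. It was 2.64 between DMSO replicates 1 and 2 and 3.15 between DMSO replicates 3 and 4, against 8.70 to 11.3 across. It was 2.66 between dTAG47 replicates 3 and 4. dTAG47 replicate 1 did not follow its label. Its distance to dTAG47 replicate 2 was 8.17, while its distances to DMSO replicate 3 and dTAG47 replicate 3 were 4.55 and 5.68. The labels give no plating, extraction, library or run date for any replicate, so culture and library preparation cannot be told apart. Results are therefore given by replicate number, and the main ones also without dTAG47 replicate 1.

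Replicate cultures of 1 line share a genome, and differ in density, medium, handling and harvest. Such culture states have known transcript markers: hypoxia and glycolysis genes follow oxygen, SREBP targets follow sterols, ATF4 targets follow amino acids, and mitotic genes follow the share of dividing cells. Transcripts also differ in base composition. Coding exons of genes in gene-dense regions are often rich in G and C, whereas long exons and long 3′ untranslated regions of many cell-cycle genes are rich in A and T.

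The 8 libraries hold 40861430 to 53451641 counts, detect 16344 to 16772 genes, and assign 4.67% to 5.19% of counts to mitochondrial genes. The line was checked against 14 markers of adrenergic neuroblastoma, and 12 had a mean above 1 CPM (counts scaled to the library size by edgeR with TMM factors). The exceptions were TH and DBH, the enzymes of dopamine and noradrenaline synthesis, at 0.18 to 0.39 and 0.33 to 0.74 CPM. The summed level of the 14 markers was 4784 to 5160 CPM in replicates 1 and 2 and 4864 to 5256 CPM in replicates 3 and 4, so the pairs overlapped. Haematopoietic markers summed to 2.97 to 3.82 and 3.23 to 3.67 CPM, with 2 of 13 at 0 in every library, and mesenchymal markers to 289 to 310 and 299 to 307 CPM, mostly TWIST1. Schwann cell markers summed to 10.2 to 12.2 and 9.51 to 14.9 CPM.

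Epithelial genes set 1 library apart. KRT8, a keratin of simple epithelia, had 202 counts in dTAG47 replicate 2 and at most 4 in the other 7 libraries. KRT19 had 55, KRT18 had 46, and MSN, a linker of membrane and actin, had 39, against 0 in the other 7. DSP, a desmosome protein, had 60 against at most 1. Apart from KRT8, 20 genes had at least 10 counts in dTAG47 replicate 2 and at most 2 in each of the other 7. No other library had such a gene. Reads from a few cells of another type and a low level in every cell cannot be told apart in bulk RNA. The source of these reads, inside or outside this culture, was not tested. The 8 epithelial markers summed to 2.97 to 10.0 CPM in replicates 1 and 2, highest in this library, and to 3.33 to 3.74 CPM in replicates 3 and 4, with KRT5 and KRT14 at 0 in all 8 libraries. These genes did not divide the pairs. DMSO replicates 1 and 2 had at most 4 counts of KRT8 and 0 of KRT18 and KRT19. Where dTAG47 replicate 1 is left out below, KRT8 enters the test of the dTAG47 response and more epithelial markers enter their list. Their part in the remaining results was not tested.

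Base composition sets apart the genes described below, and 6 of them are shown first. A stretch of each is given so that the difference in G and C can be seen. They are the 3 genes most higher and the 3 most lower in replicates 3 and 4 among separated genes averaging 50 CPM or more, with separated as defined below, chosen after the values were seen. RHOT2 encodes a mitochondrial outer membrane GTPase, ZDHHC8 a palmitoyltransferase and YDJC a protein related to carbohydrate deacetylases. MZT1 is a subunit of the γ-tubulin ring that starts spindle microtubules, EID1 an inhibitor of EP300-dependent transcription, and PPP1CB a catalytic subunit of protein phosphatase 1. Each line gives the first 120 bases of the longest coding exon on the coding strand, from GRCh37, the sequence of hg19, with G and C in capitals.
RHOT2, exon 18, chr16:722928-723047, plus strand: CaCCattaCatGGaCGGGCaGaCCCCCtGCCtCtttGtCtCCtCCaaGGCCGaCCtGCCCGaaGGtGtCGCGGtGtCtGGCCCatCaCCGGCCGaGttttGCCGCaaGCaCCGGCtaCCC
ZDHHC8, exon 10, chr22:20130279-20130398, plus strand: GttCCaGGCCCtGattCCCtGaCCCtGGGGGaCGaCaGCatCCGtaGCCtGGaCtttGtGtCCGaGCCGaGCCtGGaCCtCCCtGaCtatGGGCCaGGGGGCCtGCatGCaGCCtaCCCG
YDJC, exon 5, chr22:21982957-21983076, minus strand: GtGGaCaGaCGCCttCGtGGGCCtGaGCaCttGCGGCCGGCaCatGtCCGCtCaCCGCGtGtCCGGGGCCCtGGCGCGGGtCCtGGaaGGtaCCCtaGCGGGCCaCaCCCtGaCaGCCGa
MZT1, exon 2, chr13:73293116-73293235, minus strand: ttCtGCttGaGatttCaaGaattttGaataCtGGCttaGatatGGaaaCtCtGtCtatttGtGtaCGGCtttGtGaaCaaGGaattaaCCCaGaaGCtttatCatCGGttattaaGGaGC
EID1, exon 1, chr15:49170374-49170493, plus strand: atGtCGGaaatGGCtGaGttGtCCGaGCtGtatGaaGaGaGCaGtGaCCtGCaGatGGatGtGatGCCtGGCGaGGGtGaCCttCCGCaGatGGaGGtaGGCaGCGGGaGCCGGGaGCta
PPP1CB, exon 3, chr2:29001675-29001794, plus strand: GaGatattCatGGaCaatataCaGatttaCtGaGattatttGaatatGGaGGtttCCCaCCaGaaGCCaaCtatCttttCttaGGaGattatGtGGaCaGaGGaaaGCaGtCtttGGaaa

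The stretches of RHOT2, ZDHHC8 and YDJC hold 65.0%, 65.8% and 70.8% G and C, and those of MZT1 and PPP1CB 36.7% each. EID1 is the exception, with 58.3% in its coding stretch and 39.6% over its whole transcript, most of which is not shown. The whole transcripts of RHOT2, ZDHHC8 and YDJC hold 63.8%, 65.9% and 67.2%, and those of MZT1 and PPP1CB 31.0% and 35.7%.

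RHOT2 stood at 86.6 and 83.4 CPM in DMSO replicates 1 and 2 and at 97.8 and 96.5 CPM in DMSO replicates 3 and 4. With dTAG47 it stood at 91.6 and 82.2 CPM in replicates 1 and 2 and at 102 and 105 CPM in replicates 3 and 4. Every library of replicates 3 and 4 was above every library of replicates 1 and 2, and the log2 fold change of replicates 3 and 4 over 1 and 2, with treatment as a covariate, was 0.22 ± 0.03 (SE, 4 against 4 libraries). ZDHHC8 and YDJC differed by 0.22 ± 0.04 each. MZT1 went the other way, at 66.7 and 61.4 against 54.1 and 46.0 CPM with DMSO, and 52.4 and 57.2 against 45.1 and 40.8 CPM with dTAG47. Its difference was -0.36 ± 0.05. EID1 differed by -0.33 ± 0.04, and PPP1CB, at 206 and 211 against 176 and 164 CPM with DMSO and 181 and 199 against 155 and 146 CPM with dTAG47, by -0.32 ± 0.03. In MZT1, dTAG47 replicate 1 was the lowest of the 4 libraries of its pair and fell below DMSO replicate 3, and the pairs were set apart only within each treatment.

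**Figure D1:**
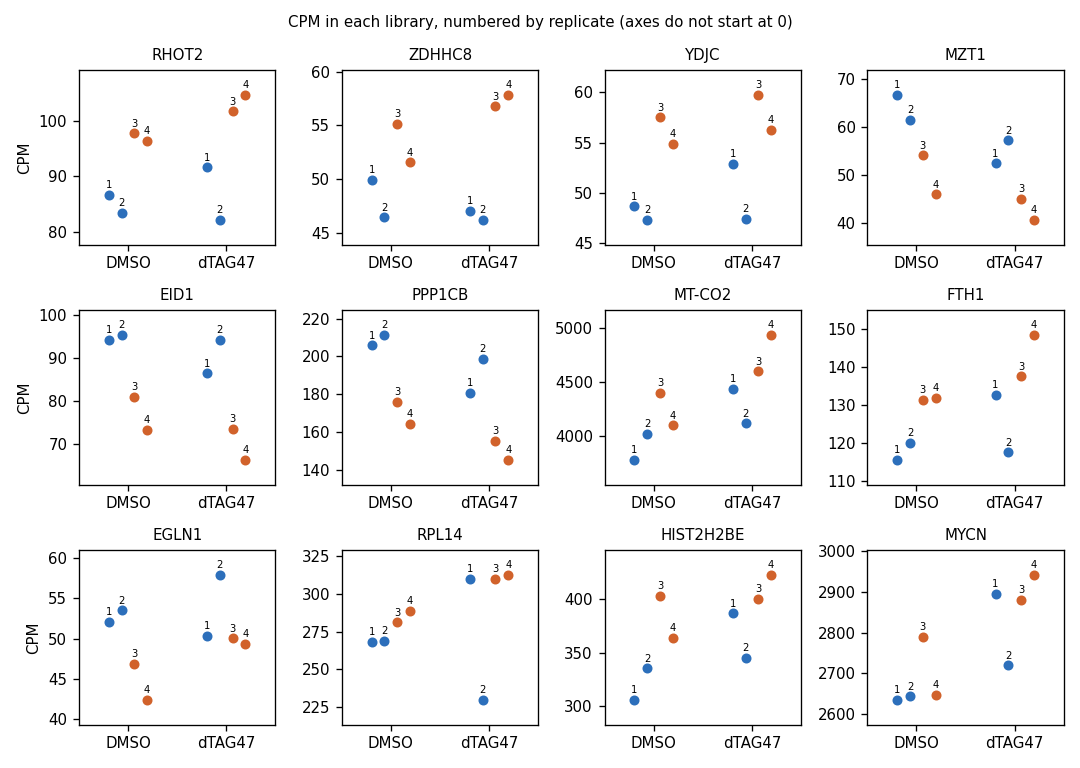
CPM of 12 genes in each parental library (y axes, which do not start at 0) under DMSO and dTAG47 (x axis), with points numbered by replicate, replicates 1 and 2 in blue and 3 and 4 in orange. RHOT2, ZDHHC8 and YDJC are higher and MZT1, EID1 and PPP1CB lower in replicates 3 and 4 within each treatment, while RPL14 is set by dTAG47 replicate 2 at 230 CPM and MYCN overlaps.

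Genes were called separated when, within DMSO and within dTAG47 alike, both libraries of one pair lay above both of the other, in the same direction. Of 14767 genes tested, 2664 (18%) were separated and higher in replicates 3 and 4, and 2894 (19.6%) were separated and lower. The differences were small, with a median size of 0.14 on the log2 scale among separated genes. Only 21 (0.142%) and 34 (0.23%) separated genes also reached 1.5-fold, higher and lower. Without dTAG47 replicate 1, whose absence makes the requirement easier to meet, 3817 (25.4%) and 3416 (22.7%) were separated.

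The largest differences were in genes of low count. CYGB, a globin that binds oxygen, stood at 1.23 and 1.10 against 2.20 and 1.67 CPM with DMSO and at 0.918 and 1.11 against 1.53 and 1.47 CPM with dTAG47, which gave a difference of 0.64 ± 0.16 on the log2 scale. SPESP1, a sperm acrosome protein, followed with 0.52 ± 0.18, SHROOM2, an actin regulator, with 0.50 ± 0.15, and BCL3, a partner of NF-κB subunits, with 0.44 ± 0.13. MFAP2, a microfibril protein, stood at 4.04 to 5.01 CPM in replicates 1 and 2 and 5.39 to 6.46 CPM in replicates 3 and 4, a difference of 0.42 ± 0.09. Among the lower genes were LIPI, a phospholipase, at -0.70 ± 0.19, SBSPON, a secreted somatomedin B domain protein, at -0.59 ± 0.11, and ERAP2, a peptidase that trims MHC class I peptides, at -0.54 ± 0.20. NAIP, which recognizes bacterial flagellin, and PLN, an inhibitor of the SERCA calcium pump, were lower by -0.51 ± 0.18 and -0.46 ± 0.15. The 12 largest differences in each direction were all in genes with a mean of 1.02 to 8.03 CPM, where the standard errors are wide.

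The split followed base composition across the transcriptome. GC content was taken from the canonical transcript of each gene, and 12670 genes averaging 1 CPM or more had a value. Across these genes Spearman's rho between GC content and the log2 fold change was 0.85, given as a description since all genes share the same 8 libraries. It was 0.76 in the DMSO libraries and 0.80 in the dTAG47 libraries taken alone, and 0.82 without dTAG47 replicate 1. The coding region gave 0.77 and the 3′ untranslated region 0.75, whereas the 5′ untranslated region gave 0.25 and the promoter 0.16 (10286 to 12508 genes with each feature). Transcript length gave -0.27.

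Genes were put into 5 equal groups by GC content. In the lowest group (30.7% to 40.6%), 69.8% of 2534 genes were separated and lower in replicates 3 and 4 and 2 genes were separated and higher, with a median log2 fold change of -0.15. In the highest group (58.8% to 74.8%), 55.2% were separated and higher and 0 were separated and lower, with a median of 0.14. The separated genes that were higher had a median GC content of 59.2%, and those that were lower 39.6%. Chromosomes followed their composition. Chromosome 19, with the highest median transcript GC content (59.3%), had a median log2 fold change of 0.12. Of its 886 genes averaging 1 CPM or more, 391 were separated and higher and 63 lower. Chromosome 13, with the lowest GC content (42.2%), had a median of -0.08, with 6 of 219 genes higher and 94 lower. The shares of all 14767 genes tested were 18% higher and 19.6% lower. They include genes below 1 CPM, which the groups and chromosomes here leave out, so the 2 sets of genes are not the same.

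**Figure D2:**
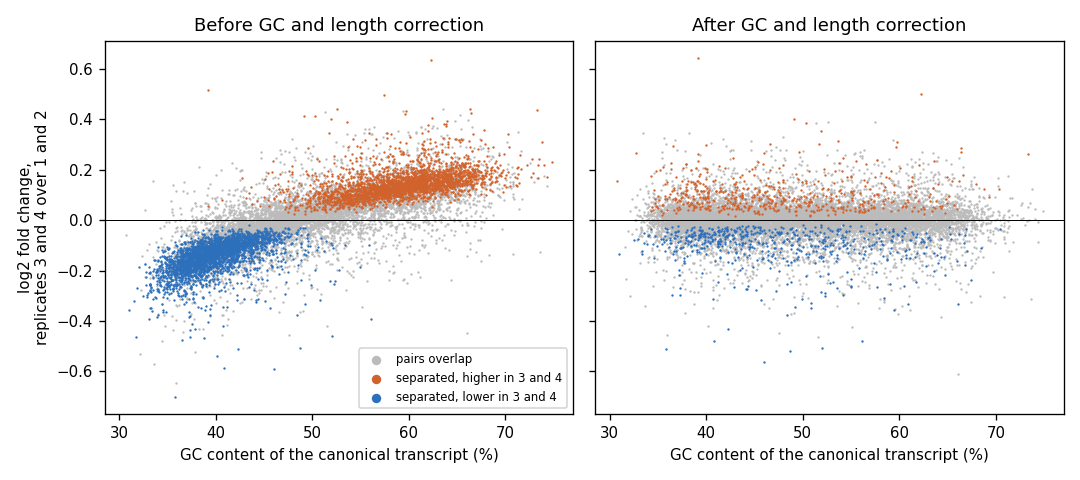
Log2 fold change of replicates 3 and 4 over 1 and 2 (y axis) against the GC content of the canonical transcript (x axis, %) for genes averaging 1 CPM or more, before (left) and after (right) a correction of each library for GC content and transcript length. Separated genes are orange where higher and blue where lower in replicates 3 and 4, and the rising band on the left (Spearman's rho 0.85 over 12670 genes) is flat on the right (0.02).

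The trend was also present library by library. As a slope of log2 CPM, relative to the mean of the 8 libraries, per 10 percentage points of GC content, it was -0.08 and -0.07 in DMSO replicates 1 and 2 and 0.03 in each of DMSO replicates 3 and 4. In the dTAG47 libraries it was -0.06 in replicate 2, 0.07 in replicate 3 and 0.10 in replicate 4. dTAG47 replicate 1, at -0.01, lay between the pairs. The libraries of the other experiment also differed in this slope within a group, from -0.15 to 0.13 among the EGFP libraries and from -0.05 to 0.06 among the OmoMYC libraries, relative to their group means. Whether the trend arises in the cells, in library preparation or in sequencing was not tested.

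**Figure D3:**
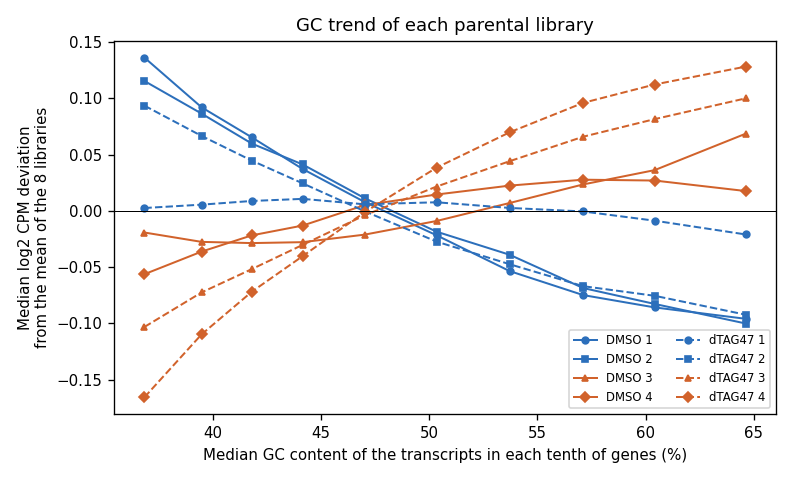
Median deviation of log2 CPM from the mean of the 8 libraries (y axis) in 10 equal groups of genes ordered by GC content (x axis, median of each group, %), 1267 genes per group, 1 line per library. Replicates 1 and 2 (blue) end below 0 and 3 and 4 (orange) above 0 at high GC content, and those of 1 and 2 start above 0 and those of 3 and 4 below it, except dTAG47 replicate 1, which stays between -0.021 and 0.011.

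A correction was then made in each library for GC content and transcript length, by removing a smooth trend of log2 CPM on these features. Of 14632 genes with both features, 598 (4.09%) were then separated and higher in replicates 3 and 4 and 641 (4.38%) separated and lower. Of these, 311 and 412 had been separated in the same direction before. Across 12718 genes, the log2 fold change between pairs in the DMSO libraries had a Pearson correlation of 0.60 with that in the dTAG47 libraries, and after the correction 0.13 across 12670. With dTAG47 replicate 1 left out, 1637 (11%) and 1210 (8.13%) were separated after the correction.

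**Figure D4:**
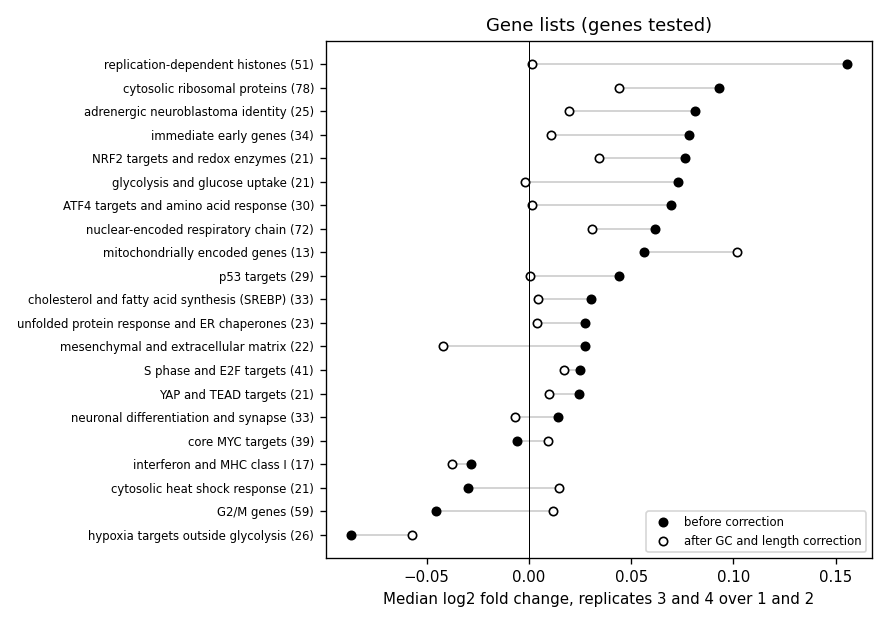
Median log2 fold change of replicates 3 and 4 over 1 and 2 (x axis) in each gene list with at least 10 genes tested (y axis, number tested in parentheses), before (filled) and after (open) the correction for GC content and transcript length. Replication-dependent histones move from 0.16 to 0.00 and G2/M genes from -0.05 to 0.01, while mitochondrially encoded genes move away from 0, to 0.10.

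Genes of cell division were among the lower genes before the correction. The list of 58 G2/M genes gave 59 entries tested, since CKS1B has 2 identifiers. Of these, 25 were separated and lower and 8 higher, against 19.6% and 18% of all genes. After the correction 2 were lower and 0 higher, against 4.38% and 4.09%. KIF20B, a kinesin of cytokinesis, stood at 61.6 and 63.1 against 54.7 and 50.9 CPM with DMSO and 55.7 and 61.1 against 47.6 and 48.6 CPM with dTAG47, a difference of -0.26 ± 0.04. CDK1, the kinase that drives mitotic entry, was lower by -0.24 ± 0.03, and KIF14, a kinesin of the central spindle, by -0.20 ± 0.03. These 3 transcripts hold 34.3% to 38.3% G and C. After the correction the differences were -0.05 ± 0.03, -0.05 ± 0.03 and -0.06 ± 0.03, and KIF14 and BIRC5, an inhibitor of apoptosis in the chromosomal passenger complex, were the genes still separated. The counts depended on 1 library. Without dTAG47 replicate 1, 19 G2/M genes were separated and higher and 2 lower after the correction, with a median of 0.03 against 0.01 in all 8 libraries, against 11% and 8.13% of all genes, among them CCNB1 (0.07), the cyclin of mitotic entry, and the kinases PLK1 (0.06) and AURKB (0.06).

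Among the 6 mitotic and chromosome genes chosen from those the study names, all lay on the lower side before the correction. CENPE, a kinetochore motor, stood at 146 and 139 against 130 and 123 CPM with DMSO and at 119 and 134 against 110 and 105 CPM with dTAG47, a difference of -0.21 ± 0.03. The kinetochore protein CENPF (-0.10 ± 0.03), the spindle protein ASPM (-0.19 ± 0.03) and the DNA topoisomerase TOP2A (-0.12 ± 0.02) were separated in the same direction, as were the cohesin and condensin subunits SMC3 (-0.11 ± 0.03) and SMC4 (-0.15 ± 0.03). None of the 6 was separated after the correction, and the values of SMC3, SMC4 and TOP2A were then 0.05, 0.02 and 0.01. Among the 4 DMSO libraries alone, CENPE ranged from 123 to 146 CPM.

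S phase and histone genes gave a mixed picture. Of 41 S phase and E2F targets, 11 were separated and higher and 9 lower, against 18% and 19.6% of all genes, with a median of 0.02. After the correction the counts were 0 and 1, against 4.09% and 4.38% of all genes. The median was then 0.02, and 0.04 without dTAG47 replicate 1, on which these counts also depended. Of 51 replication-dependent histone genes, whose short transcripts lack poly(A) tails, 27 were separated and higher and 0 lower, with a median of 0.16. HIST1H4J, a histone H4 gene of 61.7% GC content, stood at 9.93 and 9.56 against 13.8 and 11.4 CPM with DMSO and at 12.5 and 12.1 against 14.97 and 13.4 CPM with dTAG47. After the correction, which 49 of the 51 could enter, 1 histone gene was separated and higher and 1 lower, with a median of 0.00. The gene that stayed higher was HIST2H2BE, an H2B gene of 47.9% GC content with a transcript of 2224 bases against 389 in HIST1H4J, at 306 and 335 against 403 and 364 CPM with DMSO and 387 and 345 against 401 and 423 CPM with dTAG47.

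Ribosomal and mitochondrial genes were mostly on the higher side, before and after the correction. Of 78 cytosolic ribosomal protein genes, 37 were separated and higher and 1 lower before it, against 18% and 19.6% of all genes. After it 21 were higher and 0 lower, against 4.09% and 4.38%. The medians were 0.09 before and 0.04 after. RPL41 stood at 412 and 472 against 549 and 480 CPM with DMSO and 522 and 481 against 568 and 545 CPM with dTAG47. Its difference was 0.18 ± 0.05 before and 0.16 ± 0.04 after the correction, and that of RPL28 was 0.18 ± 0.03 and 0.11 ± 0.03. RPS15, of 61.3% GC content, went from 0.21 ± 0.05 to 0.04 ± 0.03 and was no longer separated. Ribosomal protein genes, histone genes and mitochondrial genes have near-identical copies in the genome, and how reads that match several places were counted is not given in the sources used here, so their single values are uncertain. The median transcript of the ribosomal list is 827 bases, against 2858 to 4107 bases in the middle of 5 equal groups of all genes by length.

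All 13 protein-coding genes of the mitochondrial genome had a positive difference after the correction, with a median of 0.10. Of these, 9 were separated and higher and 0 lower, against 4.09% and 4.38% of all genes. Before the correction, 3 were separated and higher, against 18% of all genes. MT-CO2, a cytochrome c oxidase subunit, stood at 3779 and 4019 against 4397 and 4096 CPM with DMSO and 4432 and 4113 against 4597 and 4933 CPM with dTAG47. It differed by 0.14 ± 0.03 both before and after the correction. MT-ND4, a complex I subunit, differed by 0.07 ± 0.03 and then 0.13 ± 0.03, and MT-CYB, of complex III, by 0.10 ± 0.03 and 0.11 ± 0.03. DMSO replicate 1 was the lowest of the 8 libraries in each of these 3 genes.

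The nuclear genes of the respiratory chain moved less evenly. Of 72, 24 were separated and higher and 5 lower, against 18% and 19.6% of all genes. After the correction 13 were higher and 2 lower, against 4.09% and 4.38%, with a median of 0.03. COX6B1, a cytochrome c oxidase subunit, was higher at 93.1 and 99.8 against 119 and 108 CPM with DMSO and 113 and 105 against 123 CPM in each with dTAG47. SDHD, the membrane anchor of succinate dehydrogenase, was lower in both analyses, by -0.21 ± 0.04 and -0.09 ± 0.04. Without dTAG47 replicate 1 the counts after the correction were 26 and 2 for this list, 41 and 1 for ribosomal proteins and 11 and 0 for mitochondrially encoded genes, against 11% and 8.13% of all genes.

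Among lists that mark nutrient and stress states, few genes were separated after the correction in all 8 libraries. The shares of all genes that were separated and higher or lower, 18% and 19.6% before the correction and 4.09% and 4.38% after it, are the background for each list that follows. Of 33 genes of cholesterol and fatty acid synthesis, 10 were separated and higher and 9 lower. FASN, the fatty acid synthase, of 65.3% GC content, was higher by 0.19 ± 0.03, whereas STARD4, a sterol carrier, and MSMO1, a sterol oxidase, of 34.4% and 37.4%, were lower by -0.22 ± 0.03 and -0.20 ± 0.03. After the correction 1 was higher and 0 lower, and without dTAG47 replicate 1, 7 were higher and 0 lower, against 11% and 8.13% of all genes. Among 21 genes of glycolysis and glucose uptake, 9 were higher and 1 lower before and 1 and 0 after, with PFKL, a phosphofructokinase, at 0.16 ± 0.03 and then 0.01 ± 0.03.

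Amino acid and protein stress lists were read against the same shares of all genes, 18% higher and 19.6% lower before the correction and 4.09% and 4.38% after it. Of 30 ATF4 targets, 11 were higher and 5 lower before and 1 and 1 after the correction. Of 23 genes of the unfolded protein response, 2 and 6 became 1 and 0, and of 21 cytosolic heat shock genes, 1 and 6 became 1 and 0. These counts depended on dTAG47 replicate 1. Without it the medians after the correction were 0.01 for ATF4 targets, 0.04 for the unfolded protein response and 0.04 for heat shock genes. In all 8 libraries they were 0.00, 0.00 and 0.01. Immediate early genes, which respond within minutes to serum, gave 4 and 2 of 34 and then 1 and 2. The YAP and TEAD targets, which follow cell contact, gave 2 and 3 of 21 and then 1 and 0. Of 29 p53 targets, 8 and 5 became 2 and 1, of 17 interferon and MHC class I genes 1 and 2 became 0 and 0, of 8 MondoA targets 1 and 1 became 1 and 0, and of 6 metallothionein and zinc exporter genes 0 and 1 became 0 and 0. Among p53 targets, PHLDA3, an AKT inhibitor, was higher by 0.29 ± 0.07 and stayed separated at 0.17 ± 0.07, and RRM2B, a ribonucleotide reductase subunit of 35.1% GC content, was lower by -0.25 ± 0.05 and was not separated after it.

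Of 21 NRF2 targets and redox enzymes, 8 were separated and higher and 5 lower, against 18% and 19.6% of all genes, and 2 and 0 after the correction, against 4.09% and 4.38%. The median of the list after the correction was 0.03, and 0.05 without dTAG47 replicate 1, on which the counts depended. FTH1, the ferritin heavy chain that stores iron, was higher in every library of replicates 3 and 4 within its treatment, at 116 and 120 against 131 and 132 CPM with DMSO and 133 and 117 against 137 and 148 CPM with dTAG47. It differed by 0.18 ± 0.03 and, after the correction, by 0.15 ± 0.03. FTL, the ferritin light chain, went from 0.14 ± 0.03 to 0.03 ± 0.03. SRXN1, a peroxiredoxin reductase, was the other gene that stayed higher, at 1.38 to 1.81 CPM in replicates 1 and 2 and 1.85 to 2.18 CPM in replicates 3 and 4. GCLM, of glutathione synthesis, and TXN, thioredoxin, were lower (-0.16 ± 0.06 and -0.11 ± 0.03), and neither was separated after the correction.

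Hypoxia targets outside glycolysis had the lowest median of the lists with at least 10 genes tested, at -0.09 before and -0.06 after the correction. Of 26 tested, 1 was separated and higher and 3 lower before, against 18% and 19.6% of all genes, and 0 and 2 after, against 4.09% and 4.38%. EGLN1, the prolyl hydroxylase that senses oxygen, was lower in both analyses, at 52.1 and 53.5 against 46.9 and 42.4 CPM with DMSO and 50.4 and 57.9 against 50.04 and 49.4 CPM with dTAG47, with differences of -0.18 ± 0.04 and -0.16 ± 0.04. Its pairs were close with dTAG47, where replicates 1 and 3 stood at 50.4 and 50.04 CPM. ZNF395 was the other gene separated after the correction (-0.15 ± 0.05). In several other members 1 library set the level. BNIP3, a mitophagy receptor, stood at 78.3 CPM in dTAG47 replicate 2 and at 42.1 to 64.5 CPM in the other 7 libraries, and VEGFA, the angiogenic factor, at 66.4 CPM against 41.7 to 60.1 CPM. ADM, the vasodilator adrenomedullin, stood at 2.04 CPM against 0.235 to 1.14 CPM.

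This is the library that also held the epithelial transcripts, and whether the observations are linked was not tested. Without dTAG47 replicate 1, which leaves replicate 2 alone to stand for its pair, 12 of 27 hypoxia targets were separated and lower and 1 higher, against 22.7% and 25.4% of all genes. After the correction 9 were lower and 0 higher, against 8.13% and 11%, with a median of -0.11.

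Of 25 adrenergic identity genes, 9 were separated and higher and 2 lower, against 18% and 19.6% of all genes, and after the correction 1 was higher and 5 lower, against 4.09% and 4.38%. Among the lower genes were MYCN, by a narrow margin given below, and the transcription factors HAND2 (-0.03 ± 0.02), INSM1 (-0.08 ± 0.03) and SOX11 (-0.08 ± 0.03). The higher gene was STMN2, a regulator of microtubules in neurons (0.05 ± 0.02). HAND2 was separated and higher before the correction (0.08 ± 0.03) and STMN2 separated and lower (-0.04 ± 0.03), so the directions of HAND2 and STMN2 turned with it. PHOX2A, a regulator of noradrenergic neurons, of 66.5% GC content, was higher by 0.19 ± 0.03 and then 0.03 ± 0.03. GATA2 and CHGA, a granule protein, were higher by 0.14 ± 0.03 and 0.12 ± 0.03 and were not separated after the correction. Neuronal and synaptic genes gave 10 and 8 of 33 and then 2 and 2, mesenchymal and matrix genes 3 and 3 of 22 and then 0 and 2, and Schwann cell genes 0 and 1 of 7 and then 0 and 0. None of the 4 haematopoietic or 2 epithelial genes tested was separated. Without dTAG47 replicate 1, which leaves replicate 2 alone for its pair, 6 epithelial genes were tested. Their median after the correction was -4.18. Core MYC targets gave 7 and 13 of 39 and then 2 and 1, with SRM, of spermidine synthesis, higher by 0.17 ± 0.03 and PPAT, of purine synthesis, lower by -0.22 ± 0.03. The counts of core MYC targets depended on dTAG47 replicate 1. Without it their median after the correction was 0.03, against 0.01 in all 8 libraries.

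MYCN itself did not divide the pairs, at 2635 and 2643 against 2790 and 2647 CPM with DMSO and 2895 and 2720 against 2881 and 2942 CPM with dTAG47, a difference of 0.05 ± 0.03. After the correction it was -0.05 ± 0.03 and separated, by a narrow margin with DMSO. The corrected values there were 2758 and 2758.2 against 2757.4 and 2594.2 CPM. MAX, the partner of N-MYC, WDR5, its chromatin cofactor, and the kinase PDPK1 differed by 0.00 ± 0.03, 0.06 ± 0.03 and 0.02 ± 0.03 and were not separated. GAPDH, the reference gene of the study's mRNA measurements, stood at 1213 to 1469 CPM in replicates 1 and 2 and at 1350 to 1510 CPM in replicates 3 and 4, a difference of 0.11 ± 0.03 that was not separated.

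Some genes with large differences after the correction, among those averaging 20 CPM or more, were chosen after the values were seen. PHF10, a subunit of a chromatin remodelling complex, was lower by -0.27 ± 0.03, at 57.3 and 56.1 against 51.0 and 50.1 CPM with DMSO and 53.7 and 52.7 against 46.7 and 45.3 CPM with dTAG47. Its GC content of 55.0% lies in the group from 52.0% to 58.8%, where 985 genes were separated and higher and 10 lower before the correction. EID1, shown above, was lower by -0.21 ± 0.03. NSA2, a ribosome biogenesis factor of 32.7% GC content, was higher by 0.26 ± 0.03, although its CPM overlapped between pairs, at 72.9 to 78.1 and 75.7 to 77.8 CPM. RPL14 was higher by 0.19 ± 0.11, set by dTAG47 replicate 2 at 230 CPM against 268 to 313 CPM in the other 7 libraries.

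Whether the pairs responded alike to dTAG47 was tested by the interaction of pair and treatment, which the division of the libraries did not use. edgeR's quasi-likelihood test with Benjamini-Hochberg adjustment called 0 of 14767 genes in either direction at an adjusted p below 0.05 (0% of genes), with 367 genes at an unadjusted p below 0.05. DESeq2 and limma-voom also called 0, with 102 and 373 genes at an unadjusted p below 0.05. With 2 libraries in each of 4 cells, the median standard error of the interaction was 0.08 on the log2 scale for genes of at least 1 CPM. A call after adjustment needs a difference of several standard errors. Differences in response well above 0.08 could therefore also be missed in most genes.

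Within replicates 1 and 2, 19 genes (0.129%) rose with dTAG47 and 7 (0.0474%) fell, and within replicates 3 and 4, 16 (0.108%) rose and 8 (0.0542%) fell. These counts come from a fit of all 8 libraries. Fitted alone, replicates 1 and 2 gave 4 and 3 genes and replicates 3 and 4 gave 426 and 470. Without dTAG47 replicate 2 the shared fit gave 932 and 957 genes within replicates 1 and 2 and 469 and 432 within replicates 3 and 4, and without dTAG47 replicate 1 it gave 78 and 15, and 387 and 512. The 2 comparisons share no library. Of the genes called, 11 rose and 7 fell in both pairs, and all 32 genes called in either pair had the same sign in the other. Across 12718 genes the log2 fold changes of the pairs had a Pearson correlation of 0.38, and of 0.28 across 12670 after the correction. GC content also ran with the response, with Spearman's rho of 0.40 within replicates 1 and 2 and 0.53 within replicates 3 and 4.

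CELSR2, an adhesion receptor of planar cell polarity, fell from 93.0 and 85.9 to 58.7 and 61.2 CPM in replicates 1 and 2, and from 101 and 98.3 to 69.6 and 68.2 CPM in replicates 3 and 4. The log2 fold changes were -0.58 ± 0.05 and -0.53 ± 0.05 (edgeR, adjusted p = 5.08e-07 and 1.70e-06). ATP11A, a phospholipid flippase, rose by 0.46 ± 0.04 and 0.44 ± 0.04 (adjusted p = 6.13e-06 and 1.01e-05), and ABCA1, the cholesterol exporter, by 0.65 ± 0.08 and 0.63 ± 0.08 (adjusted p = 0.000138 and 0.000313). All dTAG47 libraries lay on the same side of all DMSO libraries in these 3 genes.

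Of 33 genes of cholesterol and fatty acid synthesis, 6 fell within replicates 1 and 2 and 7 within replicates 3 and 4, against 0.0474% and 0.0542% of all genes, and 0 rose. HMGCS1, which makes HMG-CoA, fell by -0.36 ± 0.04 and -0.35 ± 0.04 (edgeR, adjusted p = 4.94e-05 and 0.000102), from 226 and 233 to 174 and 183 CPM in replicates 1 and 2. IDI1, an isomerase of the same pathway, and INSIG1, which retains SREBP in the endoplasmic reticulum, also fell in both pairs. Of 21 genes of glycolysis and glucose uptake, 7 and 8 rose, against 0.129% and 0.108% of all genes, and 0 fell. SLC2A1, the glucose transporter, rose by 0.32 ± 0.05 in each pair (adjusted p = 0.00541 and 0.0042), and ALDOC, an aldolase, by 0.34 ± 0.07 and 0.44 ± 0.07 (adjusted p = 0.0297 and 0.003). HK2, a hexokinase, was called in replicates 3 and 4 (0.27 ± 0.04, edgeR, adjusted p = 0.00523) and not in replicates 1 and 2 (0.19 ± 0.04, adjusted p = 0.105), and its interaction was not called.

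**Figure D5:**
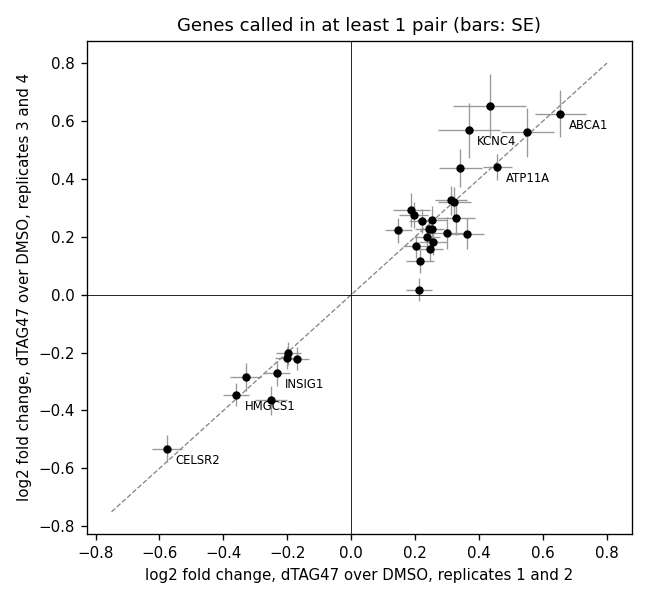
Log2 fold change of dTAG47 over DMSO within replicates 1 and 2 (x axis) and within replicates 3 and 4 (y axis) for the 32 genes called in at least 1 pair, with standard errors as bars and equality as a dashed line. All 32 genes have the same sign in both pairs, with CELSR2 lowest in each (-0.58 and -0.53) and ABCA1 highest in replicates 1 and 2 (0.65).

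The test of the response rested on the libraries dTAG47 replicates 1 and 2. Without replicate 1, 7 genes had a positive and 10 a negative interaction, and without replicate 2, 6 and 1, where the lone library is assumed to vary like the others. Among the 10 were ASPN, OMD and OGN, matrix proteoglycans whose genes lie side by side on chromosome 9. ASPN stood at 2.91 to 4.88 CPM with DMSO, at 5.29 CPM in dTAG47 replicate 2, and at 2.40, 2.19 and 1.66 CPM in dTAG47 replicates 1, 3 and 4. OGN stood at 4.50 to 7.06 CPM, at 7.50 CPM, and at 2.78, 3.56 and 2.69 CPM in the same order, and OMD at 2.29 to 2.77, 3.86, and 1.32, 1.83 and 1.37 CPM. In these 3 genes dTAG47 replicate 2 lay above all DMSO libraries and the other dTAG47 libraries below them. KRT8, described above, also had a negative interaction without replicate 1, at -7.43. The ribosomal protein genes RPL14, RPL26, RPL36, RPS12 and RPS27A had positive ones, of 0.21 to 0.34, as did ROMO1 (0.33). Each of these positive genes was lowest in replicate 2 among the dTAG47 libraries. RPS29, a ribosomal protein gene, was called as positive both without replicate 1 and without replicate 2, and with all 8 libraries after the correction (0.29 ± 0.05, edgeR, adjusted p = 0.0416, 1 of 14632 genes or 0.00683%).

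The separated genes were then read in the EGFP and OmoMYC libraries, which the division did not use. There edgeR called 27.3% of 13803 genes higher and 25.7% lower with OmoMYC. Of the 2510 tested genes that were separated and higher in replicates 3 and 4, 46.5% were higher with OmoMYC and 7.73% lower, and of the 2816 that were separated and lower, 6.71% were higher and 54.8% lower. The log2 fold change with OmoMYC had a Spearman's rho of 0.51 with GC content. For the genes separated after the correction, the shares were 23.4% higher and 30.6% lower with OmoMYC for those higher in replicates 3 and 4, and 20.8% and 34.7% for those lower. In both of these sets more genes were lower than higher with OmoMYC. Separated genes were also better expressed in the parental libraries. Their medians were 46.5 CPM for those higher and 54.7 CPM for those lower, against 9.83 CPM for genes not separated. For the sets separated after the correction they were 42.3 and 35.1 CPM. EGFP and OmoMYC libraries also differ in their GC slopes within a group, as given above. The part of expression level and of these slopes in the shares was not tested.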

How the data were processed

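RNA-seq counts of 8 parental CHP-134 libraries and 6 EGFP and OmoMYC libraries were used, from rRNA-depleted RNA. The authors used Cutadapt for trimming, STAR for alignment (hg19) and FeatureCounts for counting, and deposited raw counts per gene with 1 column per library. Versions, annotation, strand setting and treatment of multi-mapping reads are not given in the sources used here. Totals were 40861430 to 53451641 counts in the parental libraries.

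Groups and replicate numbers came from the labels. Counts were fitted with edgeR 4.0.16 (filterByExpr, TMM, robust quasi-likelihood, Benjamini-Hochberg adjustment, threshold 0.05) in R 4.3.3. The division into pairs, the gene lists and the members were chosen with earlier results of these data known, so the difference between pairs was described by an additive fit of pair and treatment and was not tested. The interaction and the dTAG47 response within each pair came from a fit of 4 groups of 2 libraries. OmoMYC was compared with EGFP in its own table. The correction removed from each library a spline with 5 degrees of freedom on GC content and on log2 length of the canonical transcript (GENCODE annotation on GRCh37), which 14632 of 14767 genes had. CPM values were scaled with TMM factors. The procedures were tested on simulated data.

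Named genes were 11 fixed genes, the 12 largest differences in each direction among separated genes averaging 1 CPM or more, up to 5 separated genes per list and the called interactions, and others are said to be chosen after their values were seen or stand for a list, marker or library described. The alternatives were other normalizations, filters and folds, DESeq2 1.42.0, limma-voom (limma 3.58.1), thinning to the smallest total, each treatment alone, a replicate block and leaving out each library. Corrections of the tests, the correction for GC content alone, fits of each pair alone and combinations of these were chosen after seeing the data.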

Additional observations from a re-analysis of the deposited data

Results flagged for a closer look

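Within each treatment of 4 parental libraries, 186 groups of values of the named genes were screened for a library far from the other 3, and 10 were found. Chance alone gives about 1 in 20 for groups not chosen by their values, and the epithelial genes here were named because they stand apart in dTAG47 replicate 2, so the number found cannot be set against that rate. dTAG47 replicate 2 accounted for 8 of them. In this library KRT8 stood at 3.75 CPM against 0.0193 to 0.0797 CPM in the other dTAG47 libraries, DSP at 1.11 CPM against 0 to 0.0193 CPM, and CDH1, the epithelial cadherin, at 0.315 CPM against 0 to 0.0199 CPM. KRT19, KRT18 and MSN stood at 1.02, 0.854 and 0.724 CPM against 0 in each of the others. RPL14 was low in the same library, at 230 CPM against 310 to 313 CPM, and EGLN1 high, at 57.9 CPM against 49.4 to 50.4 CPM. Among the DMSO libraries, MYCN was high in replicate 3, at 2790 CPM against 2635 to 2647 CPM, and KRT8 in replicate 4, at 0.0776 CPM against 0.0212 to 0.0244 CPM, which is 4 counts.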

How the results depend on the processing

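The labels give no batch or date, so handling, library preparation and replicate number cannot be told apart, and 2 libraries per pair and treatment limit the tests. The causes of the shifts below were not tested.

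Genes separated and higher in replicates 3 and 4 numbered 4225 in the DMSO and 4383 in the dTAG47 libraries alone, where fewer libraries must be set apart, and 598 after the correction for GC content and length, 597 for GC content alone and 1637 with dTAG47 replicate 1 also left out. Those lower numbered 4604 with DMSO alone, and 641, 633 and 1210 after these corrections. Leaving out each library gave 2985 to 3817 higher and 2991 to 3470 lower. Past 1.5-fold, the 21 higher and 34 lower became 68 and 75 without a filter, 3 and 15 with at least 10 counts in every library, 163 and 161 with DMSO alone, 173 and 173 with dTAG47 alone, 85 and 109 at the lower and 8 and 4 at the higher of the other fold thresholds, 47 to 67 and 56 to 91 without each library, and 91 lower after the correction without dTAG47 replicate 1. SMC3, SMC4 and TOP2A turned to 0.0549, 0.0241 and 0.01495 with the correction, to 0.0529, 0.02145 and 0.0132 with GC content alone, and to 0.0648, 0.0332 and 0.0307 without dTAG47 replicate 1 as well, and CENPF to 0.0032 with GC content alone.

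The interaction gave 0 to 7 higher and 0 to 10 lower without each library, 1 lower without a filter, 1 higher after the correction, and 13 and 12 when dTAG47 replicate 1 was also left out. The dTAG47 response within replicates 1 and 2, with 19 higher and 7 lower, became 165 and 58 without a filter, 33 and 19 after the correction, 30 higher with DESeq2, 4 and 3 when fitted alone, and 2 to 932 and 2 to 957 without each library. Within replicates 3 and 4, the 16 and 8 became 96 and 162 without a filter, 29 and 22 after the correction, 29 and 22 with DESeq2, 426 and 470 when fitted alone, 189 and 83 when fitted alone after the correction, and 2 to 469 and 2 to 512 without each library.

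For OmoMYC, the 1167 separated-higher genes that were higher became 737 to 1424 without each library and 132 for genes separated after the correction, and the 194 that were lower 136 to 373. The 189 separated-lower genes that were higher became 134 to 270 and 125, and the 1542 that were lower 1278 to 1903 and 209.

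Replicate numbers did not consistently pair the parental samples, where deviations of same-numbered libraries from treatment means correlated at 0.09, 0.30, 0.28 and 0.38. DMSO replicates 2 and 4 correlated best with the dTAG47 library of their number. DMSO replicates 1 and 3 did so with dTAG47 replicates 2 (0.45) and 4 (0.39). These deviations include the difference between pairs. The change from replicate 1 to 2 with DMSO correlated at -0.14 with that with dTAG47, and the change from 3 to 4 at -0.01. Same-numbered OmoMYC and EGFP libraries correlated at 0.13, -0.10 and 0.44. With the replicate block, the response gave 18 and 5 genes in replicates 1 and 2 and 17 and 5 in replicates 3 and 4, the interaction 0 and 0, and the OmoMYC counts were 1400, 231, 222 and 1689. Of 1062 values of single named genes under alternatives, 933 moved by less than the spread. Turns of direction were counted only for genes separated in the main analysis, and there were 10. Turns of genes that were not separated, such as MYCN with the correction, are not in this number.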
